A study of Mus musculus with 6 samples.

Results

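The genes described here encode the BAF (SWI/SNF) chromatin remodelling complexes, the CHD family of remodellers and the histone deacetylases. The members were chosen by symbol from a list of 45, made up of 24 BAF subunit genes, Adnp, 9 CHD genes and 11 HDAC genes, and all 45 were found among the 24421 genes listed and passed the expression filter that left 15906 genes to test. RNA-seq counts of 6 mouse libraries were compared, each made from cultured oligodendrocyte progenitors (OPCs), which divide and later form myelin. Of these, 3 libraries came from Prrc2bf/f; Olig2-Cre mice (knockout), in which Cre recombinase is made where Olig2 is expressed, and 3 from Prrc2bf/f mice without Cre (control). Both groups are C57BL/6J, carry floxed Prrc2b alleles, and were isolated from cortex at postnatal day 4 by panning, first on GalC and then on O4 antibody, and cultured with PDGF-AA and bFGF, although the series' design text speaks of brain tissue. Prrc2b encodes an RNA-binding protein of the PRRC2 family, and the study asks how its loss bears on myelin formation. Since Olig2-Cre was used only with floxed Prrc2b, effects of Cre itself and of Prrc2b loss cannot be told apart. Nothing in the labels states that the replicates are different animals, so the p-values speak only of how these libraries vary, which may be technical variation.

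BAF complexes use the energy of ATP to slide or evict nucleosomes. Each is built on an ATPase, SMARCA4 or SMARCA2, and core subunits. Further subunits set its class (cBAF, PBAF or ncBAF) and often change when a progenitor becomes a neuron. CHD proteins are remodellers with chromodomains, of which CHD3, CHD4 and CHD5 are alternative ATPases of the NuRD complex, which also holds HDAC1 or HDAC2. Deacetylases remove acetyl groups from histones and other proteins. In the oligodendrocyte lineage of mice, SMARCA4 is recruited by OLIG2, CHD7 acts with SOX10, and HDAC1 and HDAC2 are needed for differentiation. ADNP is a zinc finger and homeodomain protein that binds CHD4 and HP1 proteins in the ChAHP complex.

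Without the replicate number as a block, 0 of 45 members passed the edgeR test described below. With it, 5 of 45 passed (11.1%, against 3.80% of all tested genes), and all 5 were lower in the knockout. For 4 of them the RefSeq table (GRCm38.p6) gave a start site, and the 250 bases before it are shown because these genes moved in one direction. Each is written from 5′ to 3′ on the gene's own strand, with the GC box (GGGCGG, either strand) and the ETS core (CCGGAAG, either strand) in capitals.
Smarca4 (BAF ATPase), chr9:21615919-21616168, plus strand: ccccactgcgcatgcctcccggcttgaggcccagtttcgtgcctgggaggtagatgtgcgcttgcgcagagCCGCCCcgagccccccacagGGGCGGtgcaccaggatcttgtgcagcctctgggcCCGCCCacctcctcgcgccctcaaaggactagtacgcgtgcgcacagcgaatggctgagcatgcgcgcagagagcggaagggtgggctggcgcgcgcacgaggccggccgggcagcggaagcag
Smarcc1 (BAF core scaffold), chr9:110131774-110132023, plus strand: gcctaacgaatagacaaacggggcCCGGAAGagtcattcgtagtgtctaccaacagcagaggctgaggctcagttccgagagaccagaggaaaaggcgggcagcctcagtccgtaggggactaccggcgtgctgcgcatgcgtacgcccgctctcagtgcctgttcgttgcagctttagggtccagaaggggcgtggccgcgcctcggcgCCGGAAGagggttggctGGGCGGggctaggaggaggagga
Dpf1 (BAF subunit of neurons), chr7:29303755-29304004, plus strand: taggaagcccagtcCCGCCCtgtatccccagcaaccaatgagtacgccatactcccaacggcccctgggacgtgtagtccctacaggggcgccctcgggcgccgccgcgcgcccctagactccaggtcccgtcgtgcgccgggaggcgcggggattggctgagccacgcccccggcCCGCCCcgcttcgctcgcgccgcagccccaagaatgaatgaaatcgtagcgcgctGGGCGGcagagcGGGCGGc
Adnp (ChAHP subunit), chr2:168207113-168207362, minus strand: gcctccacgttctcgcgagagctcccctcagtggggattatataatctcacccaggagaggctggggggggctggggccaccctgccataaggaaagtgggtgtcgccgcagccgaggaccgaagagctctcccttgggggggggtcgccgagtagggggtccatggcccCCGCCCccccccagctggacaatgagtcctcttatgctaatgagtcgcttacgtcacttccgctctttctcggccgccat
All 4 windows were rich in G and C, at 70.8% for Smarca4, 63.6% for Smarcc1, 71.6% for Dpf1 and 64.0% for Adnp, and held 25, 21, 31 and 15 CpG dinucleotides. The Dpf1 window held 4 GC boxes, that of Smarca4 held 3, and those of Smarcc1 and Adnp held 1 each. Only the Smarcc1 window among these 4 held the ETS core, at 2 positions. RefSeq gave 43 such windows for 34 of the members, with a median of 65.2% G and C and 21 CpG, against 52.4% and 6 over all 32851 windows of the same length. The set of all windows was not limited to tested genes, whereas every member passed the expression filter. A GC box was present in 74.4% of the members' windows and 32.7% of all windows, and an ETS core in 9.30% and 6.91%. On either strand, CCAAT was found in 27.9% of the members' windows and 33.8% of all, the E-box CACGTG in 6.98% and 6.02%, TATAAA in 6.98% and 12.4%, and the NRF1 motif in 6.98% and 3.74%. The RefSeq starts of Smarcc1 and Dpf1 lie inside the genes as GENCODE annotates them, so that these windows overlap the gene bounds given further on. A match of letters is a description of the window and no record of binding.

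Prrc2b itself was lower in every knockout library. It stood at 649, 824 and 758 CPM (gene counts scaled to a common library size with TMM factors) in knockout libraries 1, 2 and 3, against 933, 1111 and 926 CPM in control libraries 1, 2 and 3. The edgeR quasi-likelihood test without the replicate block gave a log2 fold change of -0.41 (standard error 0.13, adjusted p = 1.00), and with the replicate number as a block -0.41 (SE 0.06, edgeR adjusted p = 0.00688). Gene counts ranged from 26015604 to 28114968 per library. The 10 OPC markers, all detected in every library, summed to 3594 ± 1259 CPM in knockout and 3319 ± 899 CPM in control libraries (SD, n = 3 each), and 0 of the 10 passed in either edgeR fit. Most of that sum was Ptprz1, at 2242 ± 641 CPM in knockout and 1975 ± 524 CPM in control libraries. Olig2, the gene whose regulation drives Cre here, had 342, 94.5 and 115 CPM in knockout libraries 1, 2 and 3, against 360, 180 and 166 CPM in control libraries 1, 2 and 3. It was lower in all 3 pairs and just missed the threshold with the block (-0.50, SE 0.12, edgeR adjusted p = 0.0533), and its part in the results was not tested. Transcripts of other cell types were present in the libraries behind every result below, and some differed with the block. Of 16 neuronal markers 5 fell and 0 rose, and their sum ranged from 3935 to 5836 CPM in knockout and from 4531 to 6433 CPM in control libraries, lower in all 3 pairs. Of 10 astrocyte markers 4 rose and 0 fell, with sums from 1812 to 3364 CPM in knockout and from 1578 to 2877 CPM in control libraries. Of 10 endothelial markers 8 rose and 0 fell, with sums of 46.7 to 310.5 CPM in knockout and 21.02 to 93.7 CPM in control libraries. Of 8 ependymal and choroid plexus markers 5 rose, with sums of 817 to 2710 CPM in knockout and 352 to 1845 CPM in control libraries, and of 9 pericyte and fibroblast markers 2 rose, with sums of 128 to 819 CPM in knockout and 93.0 to 547 CPM in control libraries. None of the markers in these 5 lists had a count of 0 in any library. None of 10 microglial markers or of 6 tested markers of myelinating oligodendrocytes passed, with sums of 25.2 to 362 and 251 to 669 CPM in knockout libraries and 27.0 to 373 and 205 to 880 CPM in control libraries. In such bulk libraries fewer cells of a type and less RNA per cell cannot be told apart, and the part of these cell types in the results was not tested.

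Chromatin regulators were among the better expressed genes. Their median level was 119.6 CPM, against 24.0 CPM over all tested genes. Per kb of exonic length, the highest were Chd4, at 85.0 ± 8.84 in knockout and 86.2 ± 11.2 CPM per kb in control libraries, Chd3, at 79.8 ± 13.8 in knockout and 92.2 ± 14.6 in control libraries, and the scaffold gene Smarcc2, at 75.3 ± 8.00 in knockout and 83.1 ± 7.68 in control libraries (mean ± SD, n = 3 each). The mean ± SD ranges of these 3 genes overlapped in each group. Smarca4 (53.2 ± 5.72 in knockout and 60.8 ± 6.68 CPM per kb in control libraries), Hdac2 (50.9 ± 7.37 in knockout and 55.2 ± 8.60 in control), Arid1a (49.5 ± 6.58 in knockout and 53.6 ± 9.84 in control) and Smarcd1 (47.1 ± 6.29 in knockout and 50.0 ± 5.09 in control) followed, again with overlapping ranges. These ranges are between libraries, and the order of genes within a library was not tested. At the low end were Hdac9, Hdac8, Hdac4, Dpf3, Bcl7c and Adnp, all below 4 CPM per kb in both groups. The place of Adnp depends on which of its exons the count covers, which is uncertain, as described below. Smarca4 stood above Smarca2, at a ratio of 5.76 ± 1.41 in knockout and 6.17 ± 1.45 in control libraries on the scale of counts per kb. In CPM, Smarca4 had 344 ± 37.0 in knockout and 394 ± 43.2 in control libraries. Smarca2 had 136 ± 27.4 in knockout and 144 ± 23.3 in control libraries. Exonic length here is the union of all annotated exons of a gene, 14269 bases for Smarca2 and 6475 for Smarca4. The ratio and the order of genes per kb depend on that length.

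**Figure D1:**
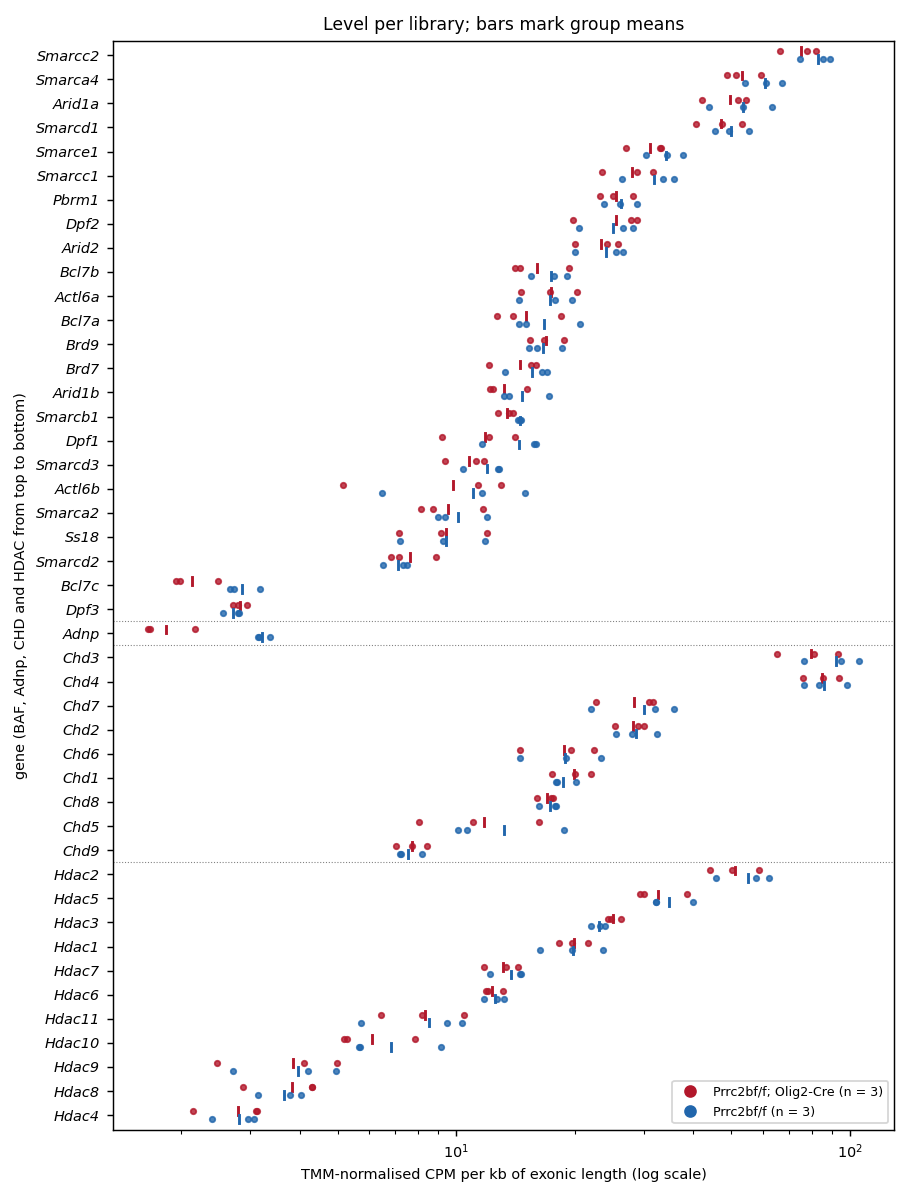
Level of each of the 45 genes in each library, in TMM-normalised CPM per kb of exonic length on a log axis, with knockout libraries (red) drawn above control libraries (blue) and bars at the group means. Chd3, Chd4 and Smarcc2 lie highest, and the groups overlap for nearly all genes.

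Without the block, 0 of 45 members passed the edgeR test at an adjusted p under 0.05, as was so for 0% of all tested genes. At an unadjusted p under 0.05 there were 2 members, Adnp and Bcl7c, against 1.72% of all tested genes. DESeq2 called 1 member, by its Adnp log2 fold change (adjusted p = 0.0128), and 0.126% of all tested genes. With limma-voom 0 members and 0% of all tested genes were called. With the replicate number as a block, 5 of 45 members fell (11.1%), 0 rose and 40 did not pass, where 3.80% of all tested genes were called (2.23% fell and 1.57% rose). The 5 were Smarca4, Smarcc1, Dpf1, Adnp and Chd3. Without the libraries numbered 3 in both groups 0 members were called, and 1.09% of all tested genes. Without those numbered 1 there was 1 member, Adnp, and 2.77% of all tested genes. Without those numbered 2 there were 5 members, with Chd5 in place of Chd3, and 3.25% of all tested genes. Across all genes the block gave 250 rises and 354 falls, a split that became 271 and 231 when libraries were scaled by their totals. The members' median level was 119.6 CPM, against 24.0 CPM over all tested genes. The shares over all tested genes, here and in later paragraphs, were not matched for expression level, and its part in these comparisons was not tested.

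Most members lay slightly lower. The blocked log2 fold change was negative for 35 of 45 members with a median of -0.07, while the median over all tested genes was 0.00. It was negative for 28 of 45 when scaled by library totals or by the upper quartile. The members' median was then -0.04, against 0.03 over all tested genes. In 24 members (53.3%) the knockout library was lower in all 3 same-numbered pairs, against 20.9% of all tested genes. In 2 members (4.44%) it was higher in all 3, against 19.6% of all tested genes. Knockout libraries all lay below control libraries for Adnp, Bcl7c and Smarcb1 (3.60% of all tested genes) and all above them for Hdac3 (2.75% of all tested genes). The highest library exceeded the lowest by a median of 1.40-fold over the members and 1.58-fold over all tested genes. This ratio was 2.90-fold for Actl6b, 2.34-fold for Chd5 and 2.02-fold for Hdac9, genes whose blocked fold changes did not pass.

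**Figure D2:**
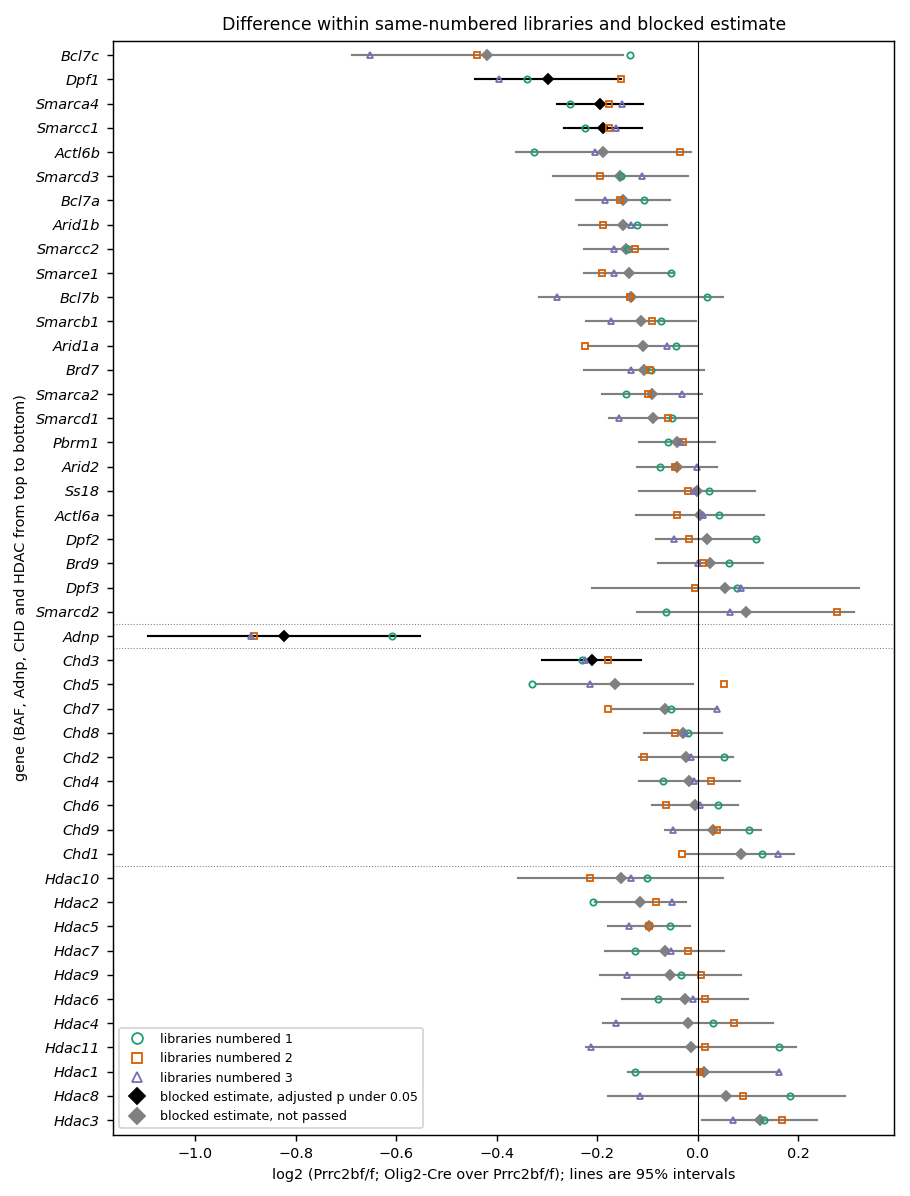
Log2 ratio of knockout over control CPM within each same-numbered pair of libraries (open symbols) and the blocked edgeR log2 fold change with its 95% interval (diamonds and lines) for every member, in family blocks. Black diamonds mark the 5 members that fell with the block. All 3 pairs are below 0 for 17 of 24 BAF genes (70.8%), against 20.9% of all tested genes.

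Among the BAF genes 3 of 24 fell with the block (12.5%, against 2.23% of all tested genes), 0 rose and 21 did not pass. In all 3 pairs 17 genes were lower (70.8%, against 20.9% of all tested genes). The median blocked log2 fold change over the 24 genes was -0.11, ranging from -0.42 for Bcl7c to 0.10 for Smarcd2. Over the 11 scaling, filter, test and left-out-pair settings this median lay between -0.12 and -0.08.

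Smarca4, the catalytic ATPase also known as BRG1 (chromosome 9, 21616169 to 21704230, plus strand), fell with the block. It had 332, 386 and 315 CPM in knockout libraries 1, 2 and 3, against 396, 436 and 350 CPM in control libraries 1, 2 and 3. Each knockout library was lower than its same-numbered control library, but the groups overlapped, since the libraries numbered 2 were highest in both. The blocked log2 fold change was -0.19 (standard error 0.04, edgeR adjusted p = 0.0266), or 0.874 of the control level, and without the block -0.19 (SE 0.12, edgeR adjusted p = 1.00). With the libraries numbered 1 left out it no longer passed (edgeR adjusted p = 0.170), nor with those numbered 3 left out (0.0733). The alternative ATPase Smarca2 was lower in all 3 pairs but did not pass (-0.09, SE 0.04, edgeR adjusted p = 0.322).

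Of 7 genes listed here as core, 1 fell and 6 did not pass. Smarcc1, the scaffold BAF155 (chromosome 9, 110117708 to 110240178, plus strand), had 225, 247 and 184 CPM in knockout libraries 1, 2 and 3, against 263, 279 and 206 CPM in control libraries 1, 2 and 3. Knockout was lower in every pair by a similar step, with overlapping groups. Its blocked log2 fold change was -0.19 (standard error 0.03, edgeR adjusted p = 0.0222), and -0.19 (SE 0.16, edgeR adjusted p = 1.00) without the block. Leaving out pair 1 or pair 3 ended the call (edgeR adjusted p = 0.0656 and 0.106). Its paralog Smarcc2, the highest core gene, had 431, 454 and 368 CPM in knockout and 475, 495 and 413 CPM in control libraries. It was lower in every pair and just missed the threshold with the block (-0.14, SE 0.04, edgeR adjusted p = 0.0703), which it passed with DESeq2 (0.0465) and limma-voom (0.0381). Smarcb1, named after its values were seen, encodes the subunit that anchors the complex to the nucleosome. It had 110.3, 108.2 and 101.1 CPM in knockout and 116.1, 115.3 and 114.1 CPM in control libraries, groups that did not overlap, and did not pass with the block (-0.11, SE 0.05, edgeR adjusted p = 0.259). Smarce1, Smarcd1 and Smarcd3 were also lower in all 3 pairs without passing, at -0.14, -0.09 and -0.15, and Smarcd2 was at 0.10 with mixed pairs. Of the exonic length of Smarcd3, 48.2% is shared with Chpf2 on the other strand, and likewise 11.6% for Actl6a, 22.4% for Hdac4 and 15.4% for Hdac11 with other genes. The strand setting of the counting was not stated in the labels.

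Of 5 genes of the cBAF class, 1 fell and 4 did not pass. Dpf1, which encodes the PHD finger subunit BAF45B of neuronal BAF (chromosome 7, 29303951 to 29318243, plus strand), had 49.4, 76.0 and 65.2 CPM in knockout libraries 1, 2 and 3, against 62.7, 84.6 and 86.0 CPM in control libraries 1, 2 and 3. It was lower in every pair, and knockout libraries 2 and 3 lay above control library 1. The blocked log2 fold change was -0.30 (standard error 0.06, edgeR adjusted p = 0.0374), and without the block -0.29 (SE 0.20, edgeR adjusted p = 1.00). The call ended when pair 1 or pair 3 was left out (edgeR adjusted p = 0.107 and 0.177), with library totals (0.0656), with the upper quartile (0.0596), among genes of at least 5 CPM (0.0663) and after GC correction (0.0587). Neuronal markers were lower in the same libraries, as given above, and their part in this result was not tested. The paralogs Dpf2 and Dpf3 did not pass, at 0.02 (95% interval -0.08 to 0.12) and 0.05 (-0.21 to 0.32). Arid1a, whose product binds DNA and defines cBAF, had 597, 624 and 482 CPM in knockout and 616, 729 and 503 CPM in control libraries, lower in all 3 pairs with overlapping groups, and did not pass (-0.11, SE 0.05, edgeR adjusted p = 0.276). Nor did Arid1b, which encodes its alternative (-0.15, SE 0.04, edgeR adjusted p = 0.0719).

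None of the 4 genes of PBAF and ncBAF passed. Arid2, which defines PBAF, had 259, 276 and 215 CPM in knockout and 273, 285 and 215 CPM in control libraries, with a blocked log2 fold change of -0.04 (95% interval -0.12 to 0.04, edgeR adjusted p = 0.609). Pbrm1, the bromodomain subunit of PBAF, was at -0.04, Brd7, another PBAF subunit, at -0.11, and Brd9 of ncBAF at 0.03. With the block 0 of these 4 were at an unadjusted p under 0.05 in edgeR, and DESeq2 and limma-voom called 0.

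None of the 6 accessory genes passed with the block. Bcl7c, a small nucleosome-binding subunit, had 17.9, 14.0 and 14.4 CPM in knockout libraries 1, 2 and 3, against 19.7, 19.2 and 22.9 CPM in control libraries 1, 2 and 3. The groups did not overlap. Its log2 fold change was -0.42 (standard error 0.16, unadjusted p = 0.0411, edgeR adjusted p = 1.00) without and -0.42 (SE 0.12, edgeR adjusted p = 0.0954) with the block. Its paralog Bcl7a had 132, 175 and 121 CPM in knockout and 142, 195 and 137 CPM in control libraries, lower in each pair (-0.15, SE 0.04, edgeR adjusted p = 0.0896). The actin-like pair Actl6a, of progenitors, and Actl6b, of neurons, stood at 0.00 (95% interval -0.12 to 0.13) and -0.19 (-0.36 to -0.01, edgeR adjusted p = 0.242). Bcl7b was at -0.13 (-0.32 to 0.05). Ss18, which encodes a subunit of cBAF and ncBAF, was at 0.00 (-0.12 to 0.11).

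**Figure D3:**
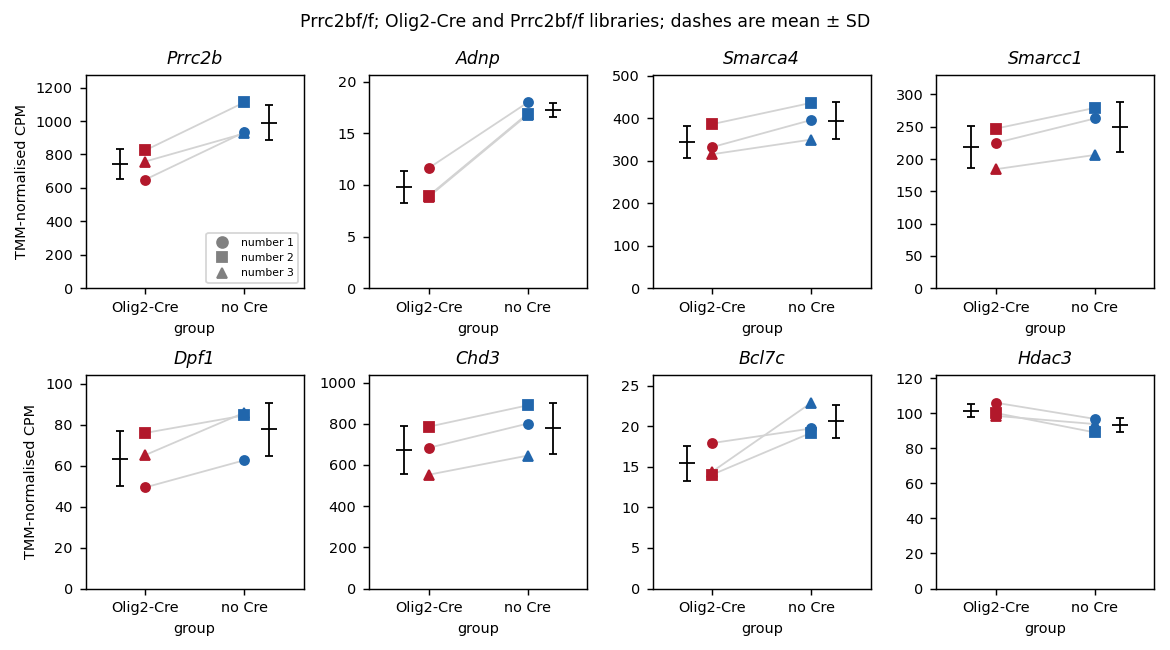
TMM-normalised CPM per library for Prrc2b, the 5 members that fell with the block, and Bcl7c and Hdac3, with knockout (red) left of control (blue), lines joining same-numbered libraries and mean ± SD beside the points. Every line rises from the knockout to the control side except for Hdac3, and the groups overlap for Smarca4, Smarcc1, Dpf1 and Chd3.

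Adnp had the largest difference of the 45 members. It had 11.6, 8.94 and 8.84 CPM in knockout libraries 1, 2 and 3 (counts of 319, 251 and 234), against 18.0, 16.9 and 16.8 CPM in control libraries 1, 2 and 3 (counts of 487, 443 and 475). The groups were well apart, and knockout library 1 was the nearest to the control level. The blocked log2 fold change was -0.82 (standard error 0.12, edgeR adjusted p = 0.00967), or 0.565 of the control level, and without the block -0.81 (SE 0.18, unadjusted p = 0.00279, edgeR adjusted p = 1.00). It passed under all 8 other scalings, filters and tests with the block, and missed the threshold when pair 3 was left out (edgeR adjusted p = 0.0591). What the count covers is uncertain. Adnp lies on the minus strand of chromosome 2 from 168180986 to 168207112, and 4393 of its 5350 exonic bases (82.1%) are also annotated to Gm20716, a read-through gene on the same strand that RefSeq also lists as Dpm1-adnp. The 957 unshared bases lie in the first exons, while the exons with the coding sequence are shared. Counts of Gm20716 were not analysed here, and the rule for reads that fall in both genes was not stated in the labels. Over all 5350 exonic bases Adnp stood at 1.83 ± 0.295 CPM per kb in knockout and 3.22 ± 0.122 CPM per kb in control libraries, among the lowest members. If the count covered only the 957 unshared bases, its level per kb would be higher. Dpm1, which shares the upstream exons of Gm20716, was at 0.238 ± 0.0463 in knockout and 0.209 ± 0.0259 CPM per kb in control libraries. It had no passing difference (0.18, SE 0.32, edgeR adjusted p = 0.821). Which part of the transcript the Adnp count covers therefore cannot be told, and without Adnp 4 of 44 members fell with the block.

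**Figure D4:**
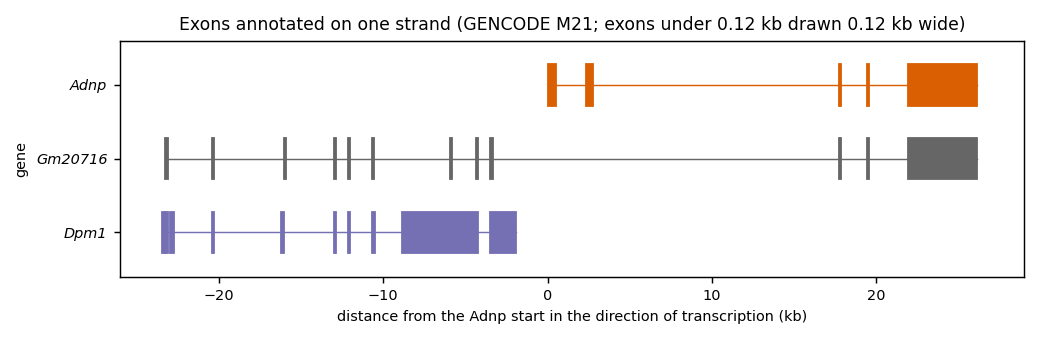
Annotated exons of Adnp, Gm20716 and Dpm1, which lie on one strand, by distance in kb from the start of Adnp in the direction of transcription. The last 3 exon blocks of Adnp are shared with Gm20716, and its first 2 blocks are not.

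Among CHD genes 1 of 9 fell with the block (11.1%, against 2.23% of all tested genes), 0 rose and 8 did not pass. In all 3 pairs 2 CHD genes were lower (22.2%, against 20.9% of all tested genes). Their median blocked log2 fold change was -0.02, against 0.00 over all tested genes. With library totals or upper quartile scaling it became 0.00 (positive), against 0.03 over all tested genes. Chd3, the NuRD remodeller that fell (chromosome 11, 69343273 to 69369406, minus strand), had 683, 786 and 553 CPM in knockout libraries 1, 2 and 3, against 801, 890 and 646 CPM in control libraries 1, 2 and 3. The step was similar in every pair, and library 2 was highest and library 3 lowest in both groups, so that the groups overlapped. Its blocked log2 fold change was -0.21 (standard error 0.04, edgeR adjusted p = 0.0323), and -0.21 (SE 0.18, edgeR adjusted p = 1.00) without the block. The call was lost without any 1 of the 3 pairs (edgeR adjusted p from 0.0883 to 0.159), after GC correction (0.0586), with library totals (0.0518) and among genes of at least 5 CPM (0.0730). Its paralog Chd4, the usual ATPase of NuRD and the partner of ADNP, did not pass at -0.02 (95% interval -0.12 to 0.08). Chd5, the form of neurons, was at -0.16 (-0.32 to -0.01, edgeR adjusted p = 0.250), with the pair numbered 2 on the other side of 0, and without that pair it passed at -0.27 (edgeR adjusted p = 0.0295).

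The remaining CHD genes did not pass. Chd7, mutated in CHARGE syndrome in humans, had 426, 435 and 312 CPM in knockout and 442, 492.5 and 304 CPM in control libraries, with the pair numbered 3 opposite to the others (-0.06, 95% interval -0.17 to 0.04). Chd8, a gene linked to autism in humans, was at -0.03 (-0.11 to 0.05), and Chd6 and Chd9 were at -0.01 and 0.03. Chd1, which acts with elongating RNA polymerase II, was at 0.09 (-0.02 to 0.19). Chd2 had 414, 428 and 362 CPM in knockout and 399, 461 and 365 CPM in control libraries, a blocked log2 fold change of -0.02 (-0.12 to 0.07). Its annotated exons share 2628 bases (18.4%) with 1810026B05Rik on the same strand, known as Chaserr, a non-coding RNA that represses Chd2 in mice. That RNA, named after its values were seen, had 61.6, 59.8 and 54.9 CPM in knockout libraries 1, 2 and 3, against 72.1, 73.0 and 71.7 CPM in control libraries 1, 2 and 3. The groups did not overlap, and it fell with the block (-0.30, SE 0.06, edgeR adjusted p = 0.0280), with an edgeR adjusted p of 1.00 without it. Chd2 showed no passing difference beside it.

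None of the 11 deacetylase genes passed with the block. In all 3 pairs 4 of these genes were lower (36.4%, against 20.9% of all tested genes) and 1 was higher (9.09%, against 19.6%). DESeq2 and limma-voom called 0 of them with the block either, and at an unadjusted p under 0.05 there were 3 of 11 with the block, Hdac2, Hdac3 and Hdac5, against 18.2% of all tested genes. The median blocked log2 fold change was -0.02, against 0.00 over all tested genes. With library totals or upper quartile scaling it was 0.00, against 0.03 over all tested genes. In class I, Hdac2, which acts in the NuRD, Sin3 and CoREST complexes, had 224, 262 and 197 CPM in knockout and 259, 278 and 204 CPM in control libraries, lower in each pair (-0.11, SE 0.04, edgeR adjusted p = 0.170). Hdac1, its paralog, was at 0.01 (95% interval -0.14 to 0.16). Hdac3, the catalytic subunit of a nuclear receptor corepressor complex, had 106.0, 100.1 and 98.5 CPM in knockout and 96.7, 89.0 and 93.8 CPM in control libraries. All knockout libraries lay above all control libraries for this gene, as was so for 2.75% of all tested genes. It did not pass with the block (0.12, SE 0.05, edgeR adjusted p = 0.241). Hdac8 was at 0.06 (-0.18 to 0.29).

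Class IIa enzymes, which shuttle between nucleus and cytoplasm, were led by Hdac5, with 338, 264 and 257 CPM in knockout and 351, 282 and 282 CPM in control libraries. It was lower in each pair without passing (-0.10, SE 0.04, edgeR adjusted p = 0.195), and after GC correction it was at -0.03. Hdac7, Hdac9 and Hdac4 were at -0.07, -0.05 and -0.02. In class IIb, Hdac6, the tubulin deacetylase, had 69.9, 69.2 and 76.4 CPM in knockout and 73.8, 68.5 and 76.9 CPM in control libraries (-0.02, 95% interval -0.15 to 0.10), and Hdac10, a polyamine deacetylase, was at -0.15 (-0.36 to 0.05). Hdac11, the sole class IV enzyme, had 24.8, 40.2 and 31.4 CPM in knockout and 22.1, 39.8 and 36.5 CPM in control libraries (-0.01, -0.22 to 0.19). The groups overlapped for each of these 7 genes.

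Ratios of alternative subunits within a library do not depend on library scaling. The ratio of Chd4 to Chd3, in counts per kb, was 1.16, 0.916 and 1.16 in knockout libraries 1, 2 and 3, against 1.04, 0.794 and 1.00 in control libraries 1, 2 and 3. It was higher in the knockout library of all 3 pairs, with overlapping groups. The ratio of Dpf2 to Dpf1 was 3.13, 1.97 and 1.63 in knockout and 2.27, 1.79 and 1.28 in control libraries, also higher in all 3 pairs. That of Hdac1 to Hdac2 was 0.394 ± 0.0507 in knockout and 0.361 ± 0.0456 in control libraries (SD, n = 3 each), higher in all 3 pairs, and that of Smarca4 to Smarca2 was lower in all 3. Ratios of Smarcc1 to Smarcc2, Arid1a to Arid1b and Actl6a to Actl6b moved both ways. Actl6a over Actl6b, a progenitor over a neuronal form, ranged from 1.12 to 3.93 in knockout and from 0.966 to 3.03 in control libraries, with library 1 highest and library 3 lowest in both groups. These ratios were not tested. Chd3 and Dpf1 were already among the members that fell with the block, so the ratios of Chd4 to Chd3 and of Dpf2 to Dpf1 partly restate those falls.

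**Figure D5:**
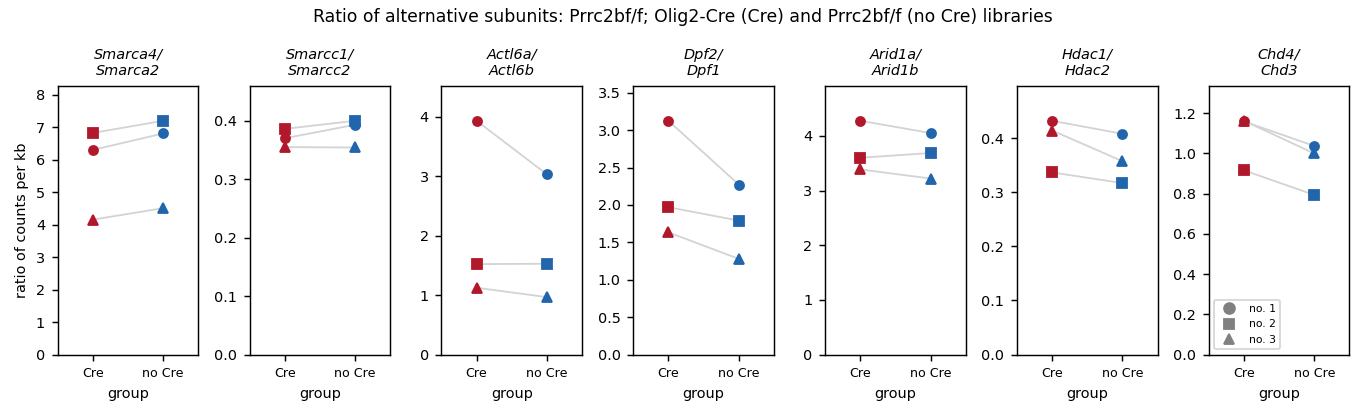
Ratio of counts per kb of 7 pairs of alternative subunits in each library, with knockout (red) left of control (blue) and lines joining same-numbered libraries. Chd4/Chd3, Dpf2/Dpf1 and Hdac1/Hdac2 are higher in the knockout library of every pair, and the groups overlap for all 7 ratios.

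Other chromatin genes were read from the same fits, from lists of further BAF genes with the Adnp paralog, of the NuRD, HP1, Sin3, CoREST, NCoR, ISWI, INO80 and SRCAP proteins, and of sirtuins. Of 68 such genes 6 fell with the block (8.82%, against 2.23% of all tested genes), 0 rose and 62 did not pass. Their median blocked log2 fold change was -0.05, and without the block 0 passed. Among those that fell were Bcl11a, a zinc finger protein tied to neuronal BAF (200.1 ± 20.2 in knockout and 238.6 ± 10.3 CPM in control libraries, SD, n = 3 each, -0.26, SE 0.04, edgeR adjusted p = 0.0121), the NuRD genes Mbd3 (-0.25, SE 0.05, edgeR adjusted p = 0.0252) and Mta1 (-0.20, SE 0.04, 0.0391), the HP1 gene Cbx1 (-0.29, SE 0.05, 0.0215) and the demethylase gene Kdm1a of CoREST (-0.19, SE 0.03, 0.0215). Of the 10 NuRD genes other than the members 2 fell. Among 11 ISWI, 15 INO80 and SRCAP and 7 sirtuin genes 0 passed in either edgeR fit and 0 were at an unadjusted p under 0.05 without the block, and the smallest edgeR adjusted p with the block was 0.0777.

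Across the members the blocked log2 fold change was lower where the transcript was richer in G and C, with Spearman's rho of -0.33 over 45 genes and -0.15 over 15332 tested genes with a known GC content. These are correlations across genes, which share libraries and are not independent replicates. With exonic length rho was 0.01 over both sets. The members had a longer annotated exonic length (median 6949 against 4322 bases). Their transcripts had a median GC content of 51.3%, against 49.8% for all tested genes. Of the 5 members that fell, Smarca4, Chd3 and Dpf1 had 55.9%, 56.1% and 57.6% GC, and Smarcc1 and Adnp had 48.4% and 48.1%. After correction for GC content Adnp, Smarcc1 and Smarca4 still passed with the block (edgeR adjusted p = 0.0104, 0.0164 and 0.0402).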

How the data were processed

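Poly(A) RNA of 6 libraries was sequenced as stranded paired-end reads, per the labels' protocols. The deposited values are raw counts per gene symbol, and the submitters' processing notes list HTSeq 0.12.4, HISAT2 2.2.1 and DESeq2 1.26.0, with mm10 as the build, but no roles. For annotation and strand setting, nothing was given in the sources used here. The 5 summary entries per table that name no gene, 18.9% to 21.3% of read pairs for those in no gene, entered neither library sizes nor tests.

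Counts were scaled by TMM, filtered with filterByExpr and tested with edgeR 4.0.16 in R 4.3.3 (quasi-likelihood, two-sided, Benjamini-Hochberg over 15906 genes, threshold 0.05), with group as the only term. The same fit with the replicate number as a block is given beside it, since deviations from group means correlated at 0.712, 0.682 and 0.654 between same-numbered libraries. The labels do not say what a number marks. Intervals use edgeR's moderated degrees of freedom. Coordinates, exonic length (the union of all annotated exons of a gene) and GC content came from GENCODE M21 (GRCm38). Alternatives were other scalings and filters, DESeq2 1.42.0, limma-voom 3.58.1, GC correction in 20 bins and left-out libraries. Members and lists were chosen with earlier results of these data known. Named genes were all members called in a fit or at an unadjusted p under 0.05 without the block, the highest member of each subfamily, and up to 3 called genes of each other list. The other members are given mostly by their blocked estimate, and Smarcb1, Hdac3, Dpm1, Ptprz1, Olig2 and 1810026B05Rik were named after their values were seen. One gene that the rule would name is not reported here.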

Additional observations from a re-analysis of the deposited data

Results flagged for a closer look

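In every knockout library, 3 kinds of read pairs that entered no gene count took a share above that of every control library. Pairs in no gene took 20.8% ± 0.50 in knockout and 19.7% ± 0.665 in control libraries, pairs of low alignment quality 3.83% ± 0.248 in knockout and 3.11% ± 0.193 in control libraries, and unaligned pairs 1.25% ± 0.122 in knockout and 1.03% ± 0.0964 in control libraries (mean ± SD, n = 3 each). Their part in the results on chromatin regulators was not tested.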

How the results depend on the processing

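Without the block 0 members were called under every scaling and filter, with limma-voom, after GC correction, at an adjusted p under 0.1 and without any 1 library, and the exceptions were the replicate block (5 fell) and DESeq2 (1 fell, Adnp). Leaving out single libraries gave 0 to 0 calls. Prrc2b passed with the replicate block (-0.41). With the replicate block, 5 members fell with DESeq2 size factors and 4 with the upper quartile. Of all tested genes, 3.60% and 3.37% were then called in either direction. With library totals, a mean of at least 5 CPM and GC correction 3 each fell (3.16%, 3.61% and 2.42% of all tested genes called). There were 8 with no filter on low counts (5.13%), 6 each with DESeq2 and limma-voom (4.28% and 4.48%) and 10 at an adjusted p under 0.1 (6.93%). Without both libraries of 1 number 0 to 5 members fell, where 1.09% to 3.25% of all tested genes were called. Without Adnp 4 fell, a setting chosen after seeing the data. 0 members rose in any of these settings. The cause of these shifts was not tested. No member that fell with the block changed direction in any setting. The lowest count of a member in any library was 234 (Adnp).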
